A study of Mus musculus with 5 samples.

Results

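The 33 genes described here encode collagens, proteoglycans and glycoproteins of the extracellular matrix, the oxidases that crosslink it, and the proteases and protease inhibitors that turn it over. They were taken by symbol from a fixed list, out of 32285 genes counted, and all 33 were listed in every library. RNA was counted in single nuclei, sorted from snap-frozen liver, of male wild-type C57BL6/J mice. The mice were fed regular chow (3 libraries) or a diet used to induce steatohepatitis with metabolic dysfunction (MASH, 2 libraries). In that diet fat made up 40 kcal% and fructose 20 kcal%, and cholesterol was added at 2%. Feeding started at 10 to 12 weeks of age and lasted 5 months. The labels do not say whether a library is a single mouse or pooled mice, so p-values measure the spread between libraries, which may be partly technical.

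In fibrosis the liver lays down a scar of fibrillar collagens, cut and assembled outside the cell and then crosslinked by lysyl oxidases. The hepatic stellate cell, a pericyte of the sinusoid that stores vitamin A at rest, is known as the main maker of this scar once it turns into a myofibroblast. Endothelial cells and hepatocytes also make matrix, among it basement membrane collagens and, in hepatocytes, the fibronectin that circulates in plasma.

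Each library held 8633 to 12935 barcodes and 35612373 to 49137377 unique molecular identifiers (UMIs), and 7969 to 11574 nuclei per library were kept. Nuclei were named by cluster markers. Stellate-like nuclei (Reln, Ecm1, Pdgfrb, Hand2os1 and other markers) numbered 505, 182 and 393 in chow and 873 and 1359 in MASH, which was 6.77%, 1.85% and 4.16% of the named nuclei in chow and 10.1% and 14.0% in MASH. All 14 stellate markers were detected in the stellate-like nuclei of every library. Endothelial-like nuclei numbered 286 to 715 per library, immune-like nuclei 196 to 2162 and hepatocyte-like nuclei 4641 to 9118. Cholangiocyte-like nuclei numbered 18, 9 and 44 in chow, too few to sum in 2 of the 3 libraries, and 319 and 1320 in MASH.

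Libraries stood apart from each other within the named lineages. Nuclei other than hepatocyte-like ones were clustered without integration of the libraries, so differences between preparations can enter these clusters. Of the stellate-like nuclei, 870 and 1358 of those of the MASH libraries lay in 1 cluster with 100 nuclei of chow replicate 1, while 398 and 180 nuclei of chow replicates 1 and 2 lay in another and 389 of chow replicate 3 in still another. A cluster of 252 endothelial-like nuclei of chow replicate 2 carried 10 of the 14 stellate markers. Among the 188 nuclei of chow replicate 1 in an immune-like cluster led by Hbb-bs, S100a9, Camp and Ngp, 24 nuclei held collagen RNA and are described with the source of the genes. The tests that rest on the cluster with stellate markers or on the cluster of the 24 nuclei are given with and without it. Of the other endothelial-like nuclei, 316 of chow replicate 3 lay in a cluster of their own, while 581 of chow replicate 1 lay with 387 and 547 of MASH. Before doublet calls were removed, the largest immune-like cluster, led by Gpnmb and Mmp12, held 39, 13 and 37 nuclei of the chow and 1701 and 1092 of the MASH libraries, and another, led by Cd163 and Clec4f, held 96, 107 and 181 and then 2 and 0. The make-up of the immune-like sums by cluster therefore differed between the diets. Any pair of libraries shared 23 to 48 barcodes, at most 0.399% of the smaller library.

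Promoter sequence was matched for 21 of the 33 genes in RefSeq (GRCm38.p6), and the 250 bases before the start are shown for 4 genes on which the results turn. Col3a1 is a scar collagen found mainly in stellate-like nuclei, Col15a1 went from a mainly hepatocyte-like source in chow to a mainly stellate-like one in MASH, and Mmp14 and Col5a3 were found mainly in hepatocyte-like nuclei under both diets. Capitals mark 3 promoter motifs on either strand. The letters TATAAA are those of a TATA box. CCAAT names its own box, bound by the factor NF-Y. GGGCGG is the core of a GC box, bound by Sp1 and its relatives. The 4 windows, each on the strand of its gene, are chr1:45311288-45311537 (+), chr4:47207762-47208011 (+), chr14:54431348-54431597 (+) and chr9:20815068-20815317 (-).
Col3a1: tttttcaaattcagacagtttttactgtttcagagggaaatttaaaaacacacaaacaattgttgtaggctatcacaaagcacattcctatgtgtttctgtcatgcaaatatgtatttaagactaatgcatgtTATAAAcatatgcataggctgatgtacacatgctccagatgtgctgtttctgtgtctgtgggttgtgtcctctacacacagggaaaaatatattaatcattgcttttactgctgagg
Col15a1: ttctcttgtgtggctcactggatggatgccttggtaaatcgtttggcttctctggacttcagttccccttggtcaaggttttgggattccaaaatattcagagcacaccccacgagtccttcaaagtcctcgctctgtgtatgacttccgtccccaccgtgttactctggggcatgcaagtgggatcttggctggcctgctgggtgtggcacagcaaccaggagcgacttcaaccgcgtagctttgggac
Mmp14: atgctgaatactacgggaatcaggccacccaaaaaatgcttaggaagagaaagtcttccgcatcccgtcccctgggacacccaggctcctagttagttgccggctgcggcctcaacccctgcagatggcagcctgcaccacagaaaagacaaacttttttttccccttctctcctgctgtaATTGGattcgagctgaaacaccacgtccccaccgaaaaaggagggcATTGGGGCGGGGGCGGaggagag
Col5a3: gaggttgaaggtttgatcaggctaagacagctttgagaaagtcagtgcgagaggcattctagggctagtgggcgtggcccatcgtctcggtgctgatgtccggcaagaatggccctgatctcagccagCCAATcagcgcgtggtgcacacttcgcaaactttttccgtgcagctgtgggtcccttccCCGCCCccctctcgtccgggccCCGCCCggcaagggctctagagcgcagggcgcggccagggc
These 21 genes had 23 promoter windows, since Col6a2 and Col18a1 each had 2, and 1 window held TATAAA, that of Col3a1, 117 bases before its start. CCAAT stood in 9 windows and GGGCGG in 16, beside 12.3% of 32526 mouse promoter windows of the same length for TATAAA, 33.8% for CCAAT and 33.0% for GGGCGG. The Col15a1 window held none of the 3. In the Mmp14 window a CCAAT match on the reverse strand and the GGGCGG matches form 1 overlapping run. These matches are descriptions of sequence, not sites.

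Several of the genes are neighbours in the genome. Col3a1 (chromosome 1, 45311538 to 45349706, plus strand, GRCm38) and Col5a2 (45374321 to 45503282, minus strand) point at each other 24614 bases apart. Col4a1 and Col4a2, whose products form the same basement membrane trimer, start head to head on chromosome 8 and share 22 bases. On chromosome 10, Dcn and Lum lie 46984 bases apart and Col6a2 and Col6a1 85161 bases apart. Col1a1 lies alone on chromosome 11 (94936224 to 94953042) and Col1a2 on chromosome 6 (4504814 to 4541544).

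The first question was which lineage each matrix gene came from. The UMIs of a gene were summed per library and lineage, and the share of each lineage in all named nuclei was averaged over libraries. In chow, stellate-like nuclei held the largest share of 21 of the 33 genes, hepatocyte-like nuclei of 11 and endothelial-like nuclei of 1, Timp3, an inhibitor of metalloproteases bound to the matrix. In MASH, stellate-like nuclei held the largest share of 26 genes and hepatocyte-like nuclei of 7. A share depends on how many nuclei of each lineage were recovered, as well as on the RNA in each.

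**Figure D1:**
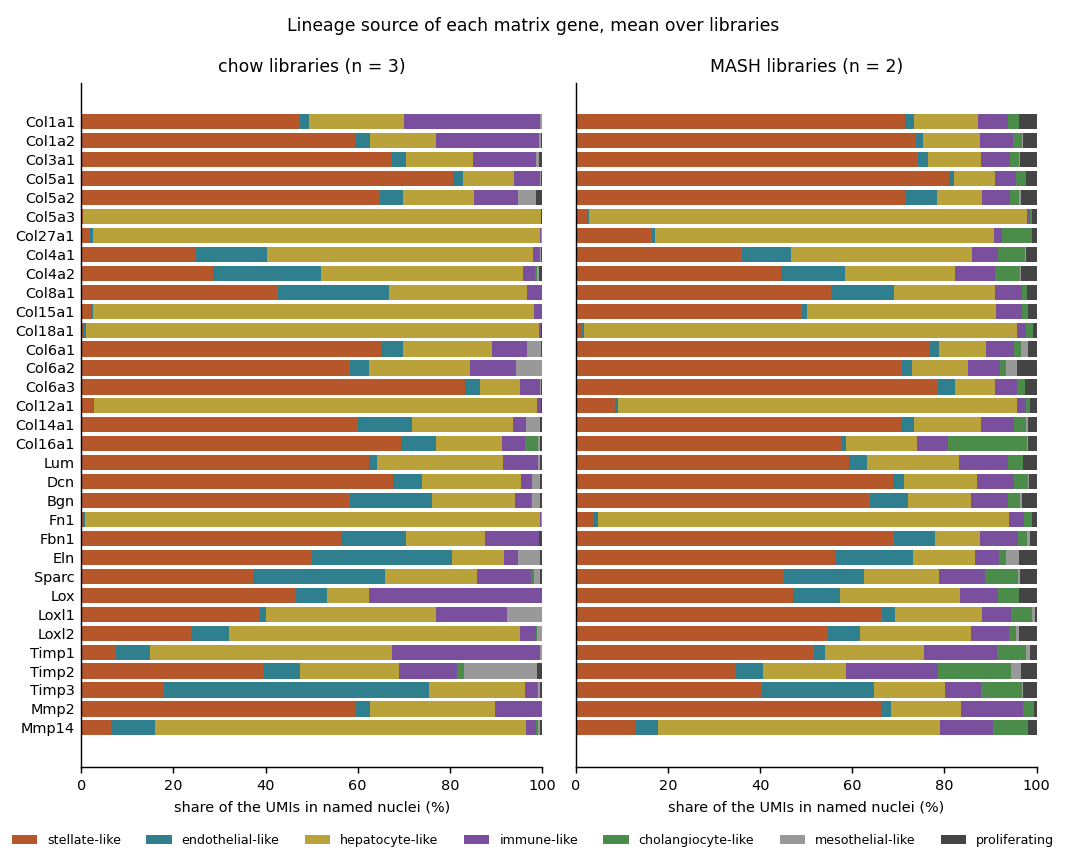
Share (%) of the UMIs of each of the 33 matrix genes in each named lineage, as the mean over 3 chow libraries (left) and 2 MASH libraries (right). Most bars are led by stellate-like nuclei, while Col5a3, Col18a1, Fn1, Col12a1, Col27a1 and Mmp14 were mostly in hepatocyte-like nuclei under both diets.

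Among the fibrillar collagens, which form the tensile fibres of scar, stellate-like nuclei held 80.8% ± 6.7 (SD, n = 3) of Col5a1 in chow and 81.1% ± 0.1 (n = 2) in MASH. Col6a3, a chain of the beaded filaments that tie fibres to cells, stood at 83.3% ± 3.9 and 78.5% ± 2.4. For the major scar collagens the chow shares were lower and spread widely. They were 47.4% ± 23.95 for Col1a1, 59.3% ± 21.8 for Col1a2 and 67.4% ± 12.3 for Col3a1 in chow, against 71.5% ± 3.8, 73.7% ± 3.6 and 74.4% ± 3.0 in MASH. In chow replicate 1 a large part of these UMIs lay in the 24 nuclei named above.

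Those 24 nuclei were chosen as having a UMI of Col1a1, Col1a2 or Col3a1. By that choice the other 164 nuclei of that library in the cluster held 0. Each of the 24 nuclei held 6 to 57 UMIs of the 3 genes together. Together they held 190 UMIs of Col1a1, 173 of Col1a2, 227 of Col3a1, 198 of Sparc, 90 of Timp1, 54 of the collagen chaperone Serpinh1, 32 of the smooth muscle actin gene Acta2 and 20 of Postn. They held 0 of Reln and Hand2os1, 5 of Ecm1, 3 of Pdgfrb, and 0 of Ptprc, Camp and Ngp. Of all kept UMIs of chow replicate 1 they held 94.7% for Timp1 (90 of 95), 92.3% for Lox (12 of 13), 70.9% for Col1a1 (190 of 268), 50.6% for Col1a2, 30.8% for Col3a1 and 22.0% for Sparc. Without the cluster, the chow share of stellate-like nuclei was 68.9% for Col1a1, 73.3% for Col1a2, 76.7% for Col3a1, 23.4% for Timp1 and 42.3% for Sparc. These nuclei were singled out after their values were seen, and no cell type name was given to them.

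A second set of genes was mostly in hepatocyte-like nuclei. The hepatocyte-like share was 99.3% ± 0.4 (SD, n = 3) in chow and 95.04% ± 1.85 (n = 2) in MASH for Col5a3, a minor chain of collagen V, and 98.5% ± 0.3 and 94.0% ± 0.6 for Col18a1, whose C-terminal fragment is endostatin. Fn1, fibronectin, stood at 98.7% ± 0.3 and 89.1% ± 1.7. Col12a1, a collagen that decorates fibrils, stood at 96.1% ± 2.0 and 86.7% ± 7.7, and Col27a1, a fibrillar collagen known from cartilage, at 97.1% ± 1.9 and 73.6% ± 16.4. Mmp14, the membrane-bound protease that activates Mmp2, stood at 80.8% ± 12.4 and 61.4% ± 8.1. All 6 had their largest share in hepatocyte-like nuclei under both diets.

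Because hepatocyte-like nuclei are many, a large share need not mean a high level, so the levels, as CPM (counts scaled to the depth of each sum), were set side by side within each library. Col5a3 stood in hepatocyte-like nuclei at 351%, 879% and 359% of its stellate-like level in the chow libraries and at 321% and 242% in MASH. Col18a1 lay between 171% and 654% and Fn1 between 143% and 367% over the 5 libraries. These 3 genes were therefore higher in hepatocyte-like than in stellate-like nuclei of every library.

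Col27a1 and Col12a1 lay on either side of the stellate-like level, from 22.3% to 158% and from 23.7% to 208%. Mmp14 stood at 11.8%, 22.0% and 24.1% in chow and 43.0% and 30.7% in MASH, below the stellate-like level in all 5 libraries although most of its UMIs were in hepatocyte-like nuclei. Col1a1 in hepatocyte-like nuclei was at 0.12% to 0.48% of the stellate-like level in chow and at 1.38% and 1.45% in MASH. The summed level of the stellate markers Reln, Ecm1, Pdgfrb and Hand2os1 in the same nuclei was at 0.34% to 0.53% in chow and at 1.02% and 1.07% in MASH. Both were higher in each MASH library than in any chow library.

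**Figure D2:**
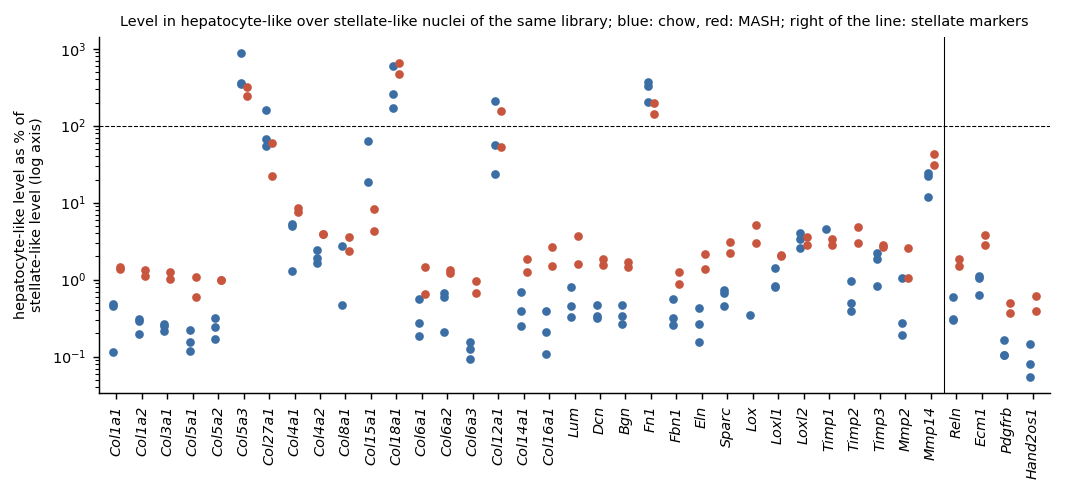
Level (unscaled CPM) of each gene in hepatocyte-like nuclei as a percent of that in stellate-like nuclei of the same library, on a log axis, with 1 point per library (blue, chow; red, MASH) and the 4 stellate markers at the right. Points at a 0 level in either lineage are not drawn. Col5a3, Col18a1 and Fn1 lay above 100% in all 5 libraries, and Col1a1 between 0.12% and 1.45%.

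Endothelial-like nuclei were a main source of few genes. They held 57.7% ± 1.3 (SD, n = 3) of Timp3 in chow and 24.5% ± 2.4 (n = 2) in MASH, and the level of Timp3 there was 252% to 290% of the stellate-like level in chow and 147% and 138% in MASH. For the basement membrane chains Col4a1 and Col4a2 the endothelial-like share was 15.7% ± 6.1 and 23.5% ± 2.1 in chow. Elastin, the gene Eln, was at 30.4% ± 12.1 in chow. Within the lineage, 1 cluster led by Vwf, a marker of larger vessels, held Eln at 85.9 to 591 unscaled CPM over the 5 libraries, against 0 to 12.5 in the other endothelial-like clusters. Col8a1, a short-chain collagen of vessel walls, was likewise at 29.4 to 229 against 0 to 5.41. These levels only describe the clusters, since clusters set against each other are no test. The 33 genes were left out of the genes used for clustering.

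Col15a1, a basement membrane collagen that links fibres to the membrane, changed its main source. In chow 95.6% ± 3.8 (SD, n = 3) of its UMIs were in hepatocyte-like and 2.2% ± 1.9 in stellate-like nuclei. In MASH 41.1% ± 17.7 (n = 2) were in hepatocyte-like and 49.1% ± 12.98 in stellate-like nuclei. Col4a2, Loxl2, Timp1 and Timp3 also went from another main source in chow to stellate-like nuclei in MASH, and no gene went the other way. The nuclei recovered moved in the same direction. Stellate-like nuclei were 1.85% to 6.77% of the named nuclei in chow and 10.1% and 14.0% in MASH. Hepatocyte-like nuclei were 77.6% to 92.8% and then 53.4% and 48.9%. Within stellate-like nuclei none of these 4 genes was called, as given below, and the log2 fold changes of Col4a2 and Loxl2 were negative. The chow share of Timp1 was uneven, at 52.5% ± 46.0 in hepatocyte-like nuclei.

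The second question was how each gene differed between MASH and chow within a lineage. Levels are CPM scaled by the TMM method of edgeR, given in the order of the libraries, unless called unscaled. In stellate-like nuclei 31 of the 33 genes could be tested, and 3 were called higher in MASH by the edgeR quasi-likelihood test at an adjusted p under 0.05, with 0 lower. Of all 8237 genes 0.291% were called higher and 0.401% lower, 0.692% in all. The 3 genes were both chains of collagen I and Col15a1.

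Col1a1, the main chain of the collagen I fibre, stood at 87.9, 80.7 and 130 CPM in chow and at 574 and 645 in MASH. Both MASH libraries lay far above all chow libraries. It rose by a log2 fold change of 2.60 (SE 0.36, edgeR adjusted p = 0.0115). Col1a2, its partner chain, stood at 197, 182 and 187 CPM in chow and at 677 and 814 in MASH. The chow libraries lay close together and the groups did not overlap, with a log2 fold change of 1.98 (SE 0.34, edgeR adjusted p = 0.0254).

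Col15a1 stood at 4.97, 15.1 and 0 CPM in chow, from 6 UMIs in all, and at 87.2 and 121 in MASH, from 342 UMIs. It was near 0 in chow and plainly detected in both MASH libraries, with a log2 fold change of 4.37 (SE 0.64, edgeR adjusted p = 0.0136). Without MASH replicate 2 none of the 3 genes was called, and without chow replicate 2 only Col15a1 was. Col1a2 lost its call without any 1 of the 5 libraries, with log2 fold changes from 1.85 to 2.10 and edgeR adjusted p-values from 0.0616 to 0.249. Under a gate on the marker genes in place of clusters, Col15a1 alone was called. The clusters that held these nuclei differed between the diets. In chow replicate 1, the 100 nuclei in the cluster of the MASH nuclei had Col1a1 at 167 unscaled CPM, against 78.7 in the other 398, and Col15a1 at 15.9 against 2.46.

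**Figure D3:**
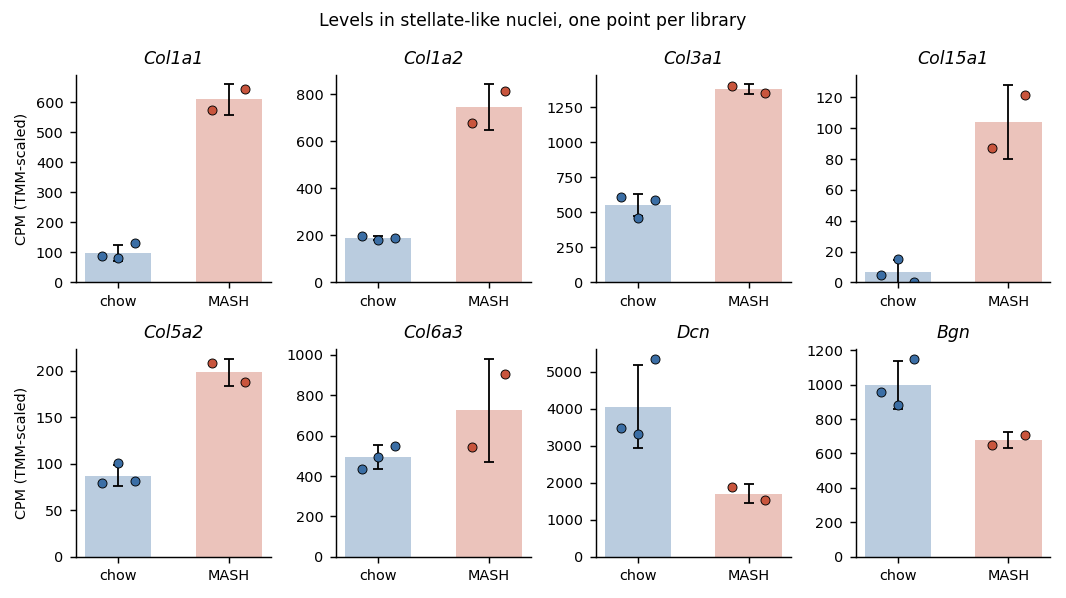
Level of 8 matrix genes in stellate-like nuclei in TMM-scaled CPM, with 1 point per library, bars at the mean and lines for 1 SD (3 chow and 2 MASH libraries). Col1a1, Col1a2, Col3a1, Col5a2 and Col15a1 lay higher in both MASH libraries than in any chow library, and Dcn and Bgn lower.

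Of the other fibrillar collagens, Col3a1 stood at 609, 464 and 590 CPM in chow and at 1404 and 1355 in MASH. The groups did not overlap, yet the log2 fold change of 1.31 (SE 0.39) missed the threshold at an edgeR adjusted p of 0.192, and it passed with DESeq2. Col5a2 stood at 79.6, 101 and 81.5 CPM in chow and 209 and 188 in MASH, with a log2 fold change of 1.20 that was not called. Col5a3 and Col27a1 had log2 fold changes of 1.15 and 1.17, also not called, and Col5a1 had 0.05. So the chains that pair in collagen V, Col5a1 and Col5a2, had different values, though the difference between them was not tested.

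The other roles were without a call in stellate-like nuclei. The log2 fold changes of the 3 tested collagen VI genes ran from 0.47 to 0.64, and Col14a1 and Col16a1, which coat fibrils, stood at 0.11 and 0.30. For the basement membrane and network collagens they were -0.55 for Col4a1, -0.29 for Col4a2, 1.18 for Col8a1 and -1.02 for Col18a1. Among glycoproteins, Eln stood at 1.39, the microfibril gene Fbn1 at 0.99, Fn1 at 0.40 and the collagen-binding Sparc at -0.38. Loxl1 and Loxl2 stood at 1.38 and -0.06, Timp1, Timp2 and Timp3 at 1.51, -0.61 and 0.55, and Mmp2 and Mmp14 at 0.51 and 0.95. Col12a1 and Lox were not tested, with 14 and 5 UMIs in chow and 71 and 40 in MASH.

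The small proteoglycans that bind collagen fibrils were not called in either direction. Dcn, decorin, stood at 3489, 3333 and 5356 CPM in chow and at 1889 and 1532 in MASH. The MASH libraries were the lowest of the 5, with a log2 fold change of -1.25 (SE 0.56, edgeR adjusted p = 0.372). Bgn had a log2 fold change of -0.56 and Lum, lumican, of 0.50. In chow replicate 1, Dcn was at 2232 unscaled CPM in the nuclei clustered with MASH and at 4414 in the others.

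Counting library order alone, 14 of the 31 genes were higher in both MASH libraries than in all chow libraries, beside 15.5% of all 8237 genes, and 5 were lower, beside 13.8%. The 5 were Dcn, Bgn, Sparc, Timp2 and Col18a1. The median log2 fold change of the 31 genes was 0.55, and that of all genes tested was -0.004. RNA of other lineages in the stellate-like sums also differed between libraries. The 12 hepatocyte markers summed to 9344, 23729 and 18879 unscaled CPM there in chow and to 8556 and 3520 in MASH, and to 13509, 16887 and 15970 and then 8275 and 7560 in hepatocyte-like nuclei themselves. Col18a1, Fn1 and Col5a3 are the genes here with the highest relative hepatocyte-like level, and the part of hepatocyte RNA in their stellate-like values was not tested. The 8 portal fibroblast markers summed to 5.55, 4.33 and 27.4 unscaled CPM in stellate-like nuclei in chow and to 36.1 and 54.7 in MASH, while the 7 smooth muscle markers summed to 125 to 266 and then 103 and 139. Their part in the collagen values was not tested. Of the stellate markers, Reln, Pdgfrb and Hand2os1 had log2 fold changes of -0.35, 0.14 and 0.24 there, and Ecm1 of -2.36 (edgeR adjusted p = 0.0543).

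**Figure D4:**
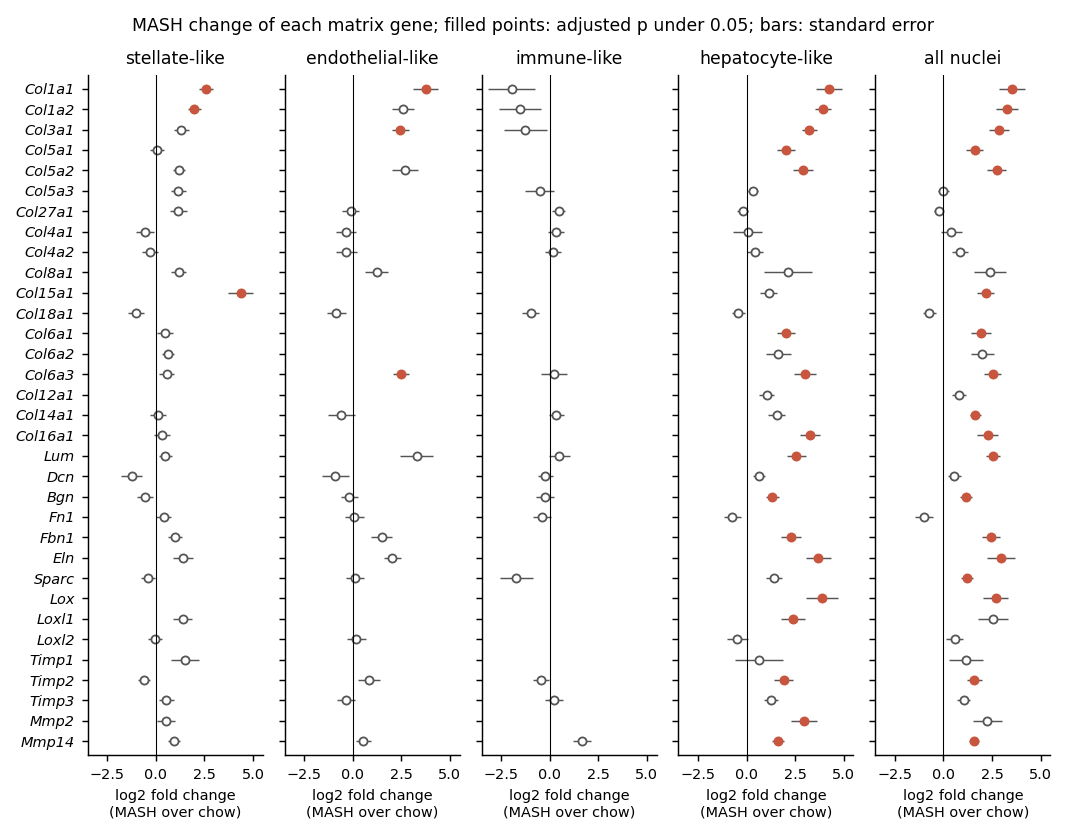
Log2 fold change of each matrix gene, MASH over chow, in stellate-like, endothelial-like, immune-like and hepatocyte-like nuclei and in all nuclei summed. Lines are 1 standard error, filled points have an edgeR adjusted p under 0.05, and genes not tested have no point. There are 3 filled points for stellate-like, 3 for endothelial-like, 0 for immune-like, 17 for hepatocyte-like and 18 for all nuclei, every filled point above 0.

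The number of stellate-like nuclei with collagen RNA was compared as well, after each nucleus was thinned to 500 UMIs, which left out 0 nuclei. A UMI of Col1a1 was found in 3.17%, 3.85% and 4.58% of stellate-like nuclei in chow and in 17.9% and 24.3% in MASH, a difference of 17.2 percentage points between the group means. For Col1a2 the shares were 11.7%, 7.69% and 4.83% and then 23.4% and 30.2%, and for Col3a1 27.9%, 16.5% and 20.1% and then 41.0% and 44.8%. For each of the 3 genes the groups did not overlap, with an exact permutation p of 0.1 (two-sided, adjusted 0.1), which is the smallest that 3 libraries against 2 can give. At least 1 of the 3 RNAs was found in 37.0%, 25.8% and 27.0% of the nuclei in chow and in 57.4% and 65.6% in MASH.

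Without thinning the differences were 30.7, 33.0 and 32.8 percentage points. In hepatocyte-like nuclei the thinned share with a UMI of Col1a1 was 0.0197% in chow and 0.532% in MASH, and 0.138% and 3.57% unthinned. The median depth was 3143 to 4266 UMIs in hepatocyte-like and 980 to 1325 in stellate-like nuclei. For Dcn the shares in stellate-like nuclei were 70.9%, 54.4% and 75.3% in chow and 50.7% and 48.3% in MASH, the opposite order.

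**Figure D5:**
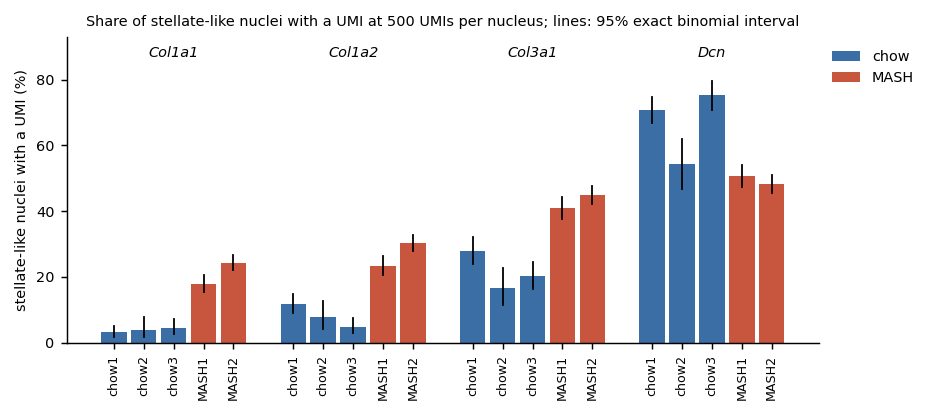
Share (%) of stellate-like nuclei with at least 1 UMI of Col1a1, Col1a2, Col3a1 or Dcn after thinning to 500 UMIs per nucleus, 1 bar per library (blue, chow; red, MASH), with 95% exact binomial intervals that cover counting error only. The bars of the 3 collagens are higher in both MASH libraries than in any chow library, and those of Dcn are lower.

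In endothelial-like nuclei 22 of the 33 genes were tested and 3 were called higher in MASH, with 0 lower, beside 0.311% of 8672 genes called higher and 0.254% lower. Col1a1 stood at 1.45, 2.60 and 4.68 CPM in chow, from 4 UMIs, and at 39.2 and 38.8 in MASH, from 52 UMIs (log2 fold change 3.75, SE 0.65, edgeR adjusted p = 0.0234). Col3a1 stood at 11.6, 20.8 and 16.4 CPM and then 86.1 and 88.6 (2.45, SE 0.42, edgeR adjusted p = 0.0234). Col6a3 stood at 15.9, 15.6 and 9.37 CPM and then 78.3 and 77.6 (2.48, SE 0.42, edgeR adjusted p = 0.0230). The groups did not overlap for these 3 genes, all of which were also held mainly by stellate-like nuclei.

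None of the 3 was called when chow replicate 1, chow replicate 3, MASH replicate 1 or MASH replicate 2 was left out, so the calls held only without chow replicate 2. With the replicate number as a block, Col1a1 and Col5a2 were called. Without the cluster that carried stellate markers, 6 genes were called, beside 119 of all 8823 genes, Col1a2, Col5a2 and Lum being added. Dcn, at a log2 fold change of -0.89, then stood at 0.93. Col1a1 in endothelial-like nuclei was at 1.67% to 3.82% of the stellate-like level in chow and at 6.55% and 6.36% in MASH, while the 4 stellate markers summed were at 1.82%, 8.96% and 3.62% in chow and at 6.32% and 4.16% in MASH. The part of stellate RNA in these values was not tested. Of the genes held in larger part by the lineage, Timp3 had a log2 fold change of -0.36, Col4a1 of -0.35, Col4a2 of -0.32 and Eln of 2.03, none called. Before doublet calls were removed, the cluster led by Vwf held 55 of 655, 28 of 301 and 52 of 394 endothelial-like nuclei in chow. It held 127 of 524 and 174 of 741 in MASH. The part of this make-up in the Eln value was not tested. The values of the genes not called ran from that of Dcn to 3.30 for Lum. Col5a1, Col5a3, Col15a1, Col6a1, Col6a2, Col12a1, Col16a1, Lox, Loxl1, Timp1 and Mmp2 were not tested, with 1 to 13 UMIs in chow and 4 to 25 in MASH.

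A joint edgeR model, in which each library was a block, tested how the change in stellate-like nuclei differed from that in endothelial-like nuclei. Of 31 genes tested 0 were called, beside 0.0944% of 9537 genes (0.0315% positive and 0.0629% negative), and 7 had an unadjusted edgeR p under 0.05. The lowest was that of Col6a3, whose stellate-like change was smaller by 1.88 on the log2 scale (edgeR adjusted p = 0.126). Without the cluster that carried stellate markers 5 genes were called, namely Col6a3, Timp3, Dcn, Lum and Timp2, beside 101 of all 9734 genes.

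In hepatocyte-like nuclei all 33 genes were tested, and 17 were called higher and 0 lower, beside 8.58% of 14888 genes called higher and 4.35% lower. Of the 17, all but Mmp14 were genes with their largest share in stellate-like nuclei, and they were counted at low levels here. Col1a1 stood at 0.105, 0.358 and 0.698 CPM in chow, from 35 UMIs, and at 6.57 and 8.26 in MASH, from 361 UMIs (log2 fold change 4.24, SE 0.65, edgeR adjusted p = 0.0116). Col1a2 rose by 3.94 and Col3a1 by 3.23, and Col5a1, Col5a2, Col6a1, Col6a3, Col16a1, Lum, Bgn, Fbn1, Eln, Loxl1, Timp2 and Mmp2 were also called. Lox was called from 19 MASH UMIs against 2 in chow, a ratio of 17.6 with a 95% interval of 4.25 to 156 that covers counting error only.

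Of the 4 stellate markers 1 passed the test in the same nuclei. Reln stood at 5.65, 6.06 and 4.02 CPM in chow and at 15.1 and 14.8 in MASH, a log2 fold change of 1.51 (edgeR adjusted p = 0.0204). Pdgfrb and Hand2os1 had log2 fold changes of 1.72 and 2.33, with edgeR adjusted p-values of 0.0551 and 0.0721, and Ecm1 of -0.85 (edgeR adjusted p = 0.114). The 8 portal fibroblast markers summed to 3.97, 3.15 and 2.88 unscaled CPM there in chow and to 69.2 and 70.7 in MASH, with 6 or 7 of the 8 detected in each library. The 10 cholangiocyte markers summed to 39.9 to 74.1 and then 120 and 138, the 14 endothelial markers to 34.1 to 50.5 and then 61.6 and 80.7, and the 7 proliferation markers to 4.57 to 5.28 and then 23.3 and 18.7. All of these sums were higher in both MASH libraries than in any chow library. The 44 immune markers summed to 51.4 to 124 there in chow and to 140 and 112 in MASH. The 7 smooth muscle markers summed to 2.27 to 4.20 and then 2.60 and 2.41. Both of the latter sums overlapped between the diets. The portal fibroblast markers summed in MASH to 36.1 and 54.7 unscaled CPM in stellate-like and to 61.9 and 56.8 in immune-like nuclei. They summed to 54.6 and 66.5 in cholangiocyte-like and to 77.1 and 104 in endothelial-like nuclei. The part of RNA of other cell types in the hepatocyte-like rise of these collagens was not tested.

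Mmp14 was the called gene whose UMIs were mainly in hepatocyte-like nuclei. It stood at 12.4, 14.3 and 22.4 CPM in chow and at 49.998 and 50.9 in MASH, with no overlap (log2 fold change 1.63, SE 0.29, edgeR adjusted p = 0.0182). The 4 stellate markers summed to 22.0 to 24.6 unscaled CPM in hepatocyte-like nuclei in chow and to 34.7 and 48.1 in MASH. Ecm1 had the most UMIs of the 4 in every chow library (369, 502 and 705), and its log2 fold change was -0.85. For Reln, Pdgfrb and Hand2os1 the log2 fold changes were 1.51, 1.72 and 2.33, beside 1.63 for Mmp14. Mmp14 was also counted in immune-like nuclei, as given below. The part of stellate or immune RNA in the hepatocyte-like rise of Mmp14 was not tested. The other hepatocyte-sourced genes were not called. Fn1 stood at 1259, 1062 and 2248 CPM in chow and at 863 and 967 in MASH (log2 fold change -0.74, SE 0.43, edgeR adjusted p = 0.275). Col18a1 had -0.42, Col5a3 0.33, Col27a1 -0.20, Col12a1 1.03 and Col15a1 1.14. Loxl2 had -0.47, Timp1 0.64, Col4a1 0.06 and Col4a2 0.46.

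The count in hepatocyte-like nuclei depended on single libraries. It was 5 without chow replicate 2, beside 812 of all 14649 genes. Without MASH replicate 1 or 2, which left 1 MASH library, fewer were called, among the 33 genes and over all genes. The median log2 fold change of the matrix genes was then 1.69 and 1.47, against 1.63 in full. Under a stricter filter on low counts, which left 9 of the 33 genes, 2 were called, beside 640 of all 9315 genes. Col6a2, Col8a1, Col14a1, Dcn, Sparc and Timp3 were tested and not called, with log2 fold changes from 0.65 for Dcn to 2.11 for Col8a1.

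The change in stellate-like nuclei was then set against that in hepatocyte-like nuclei, a comparison added after the data were seen. In the same kind of joint model 18 of the 33 genes were called, 2 positive and 16 negative, beside 5.62% of 15281 genes (1.62% positive). Col15a1 and Col27a1 changed more upwards in stellate-like nuclei, by 3.36 and 1.45 on the log2 scale. Without MASH replicate 2 neither was called, at 2.87 (edgeR adjusted p = 0.0545) and 0.78 (edgeR adjusted p = 0.883), and 4 genes were called in all. Col27a1 also lost its call without chow replicate 2, at 1.14, under the stricter filter, with the gate and with a replicate block. For the other 16, among them Col1a1, Col1a2, Col3a1, Col6a3 and Dcn, the hepatocyte-like change was the more positive. The stellate markers Reln, Ecm1, Pdgfrb and Hand2os1 were called in that same direction, at -1.81, -1.53, -1.50 and -2.13. For Col27a1 the stellate-like libraries stood at 313, 131 and 220 CPM in chow and at 380 and 630 in MASH. The hepatocyte-like libraries stood at 178, 191 and 171 CPM and then at 189 and 124.

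In immune-like nuclei 18 genes were tested and 0 were called by edgeR, beside 0.105% of 7631 genes (0.0393% higher and 0.0655% lower), while 2 had an unadjusted p under 0.05 and DESeq2 also called 0. Mmp14 came nearest, with 49.1, 10.3 and 35.1 CPM in chow and 84.7 and 136 in MASH (log2 fold change 1.68, SE 0.47, edgeR adjusted p = 0.215). Col1a1 stood at 429, 10.3 and 11.7 CPM in chow and 30.03 and 51.3 in MASH. Its high value in chow replicate 1 came from the 24 nuclei described above. With their cluster left out the log2 fold change of Col1a1 went from -1.95 to 2.04, not called either way. The tested genes ran from that first value to 1.68 for Mmp14. The genes not tested had 3 to 91 UMIs in chow and 6 to 67 in MASH, the 91 being of Timp1.

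For all kept nuclei summed, where more cells of a type and more RNA per cell cannot be told apart, 18 of the 33 genes were called higher and 0 lower, beside 10.6% of 16369 genes called higher and 5.42% lower. Col1a1 stood at 7.81, 1.14 and 3.02 CPM in chow and at 35.9 and 55.2 in MASH, a log2 fold change of 3.51 (SE 0.68, edgeR adjusted p = 0.0201). The others were Col1a2, Col3a1, Col5a1, Col5a2, Col6a1, Col6a3, Col14a1, Col15a1, Col16a1, Lum, Bgn, Fbn1, Eln, Sparc, Lox, Timp2 and Mmp14. The share of stellate-like nuclei moved with them, as given above, and the stellate markers Reln, Pdgfrb, Hand2os1 and Ecm1 had log2 fold changes of 1.23, 1.80, 1.93 and -0.67. Without chow replicate 2, 9 of the 33 genes were called, beside 1283 of all 16259 genes. Fewer were called without MASH replicate 1 or 2, which left 1 MASH library, among the 33 genes and over all genes. The median log2 fold change of the 33 genes was then 2.01 and 1.79, against 1.65 in full. Without the cluster of the 24 collagen nuclei 20 genes were called, beside 2754 of all 16347 genes. Loxl1 and Col6a2 were added, and the log2 fold change of Col1a1 was 4.40 (edgeR adjusted p = 0.00499). Fn1 had a log2 fold change of -0.98 (edgeR adjusted p = 0.172), Col18a1 of -0.73 and Col5a3 of 0.00, and of the genes held mainly by hepatocyte-like nuclei under both diets edgeR called Mmp14 alone. DESeq2 called 24 genes, 23 higher and 1 lower, beside 2458 of all 16369 genes higher and 1949 lower. The 1 lower was Fn1 (DESeq2 adjusted p = 0.0498). The values of the genes not called ran from that of Fn1 to 2.54 for Loxl1.

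A list of 111 other matrix genes gives the surroundings. In stellate-like nuclei 63 of them were tested and 1 was called, Mmp12, the macrophage elastase, whose 188 MASH UMIs against 2 in chow give a ratio of 37.6 (95% interval 10.3 to 313, counting error only). The 44 immune markers summed to 361, 125 and 470 unscaled CPM in stellate-like nuclei in chow and to 664 and 582 in MASH, and the part of immune RNA in that call was not tested. In endothelial-like nuclei 41 were tested and 3 were called higher, namely Mmp12 (70 MASH UMIs and 0 in chow, at least 26.3-fold higher when the chow group is set at 3 UMIs), Ccn1 (log2 fold change 2.87) and the fibulin Fbln2 (2.17). Fbln2 was among the leading genes of the cluster led by Vwf, which made up more of the endothelial-like nuclei in MASH, as given above. The part of that make-up in the Fbln2 call was not tested. In hepatocyte-like nuclei 80 were tested, and 21 were called higher and 8 lower, with Mmp12, Mmp13, Tnc, Ltbp3 and Adamts14 showing the largest rises. The largest falls there were in Col25a1, Colgalt2, Col7a1, the laminin chain Lama3 and Col20a1. Over all nuclei 35 of 97 were called higher and 4 lower, the 4 being Col25a1, Lama3, Col20a1 and Plod3. Among the largest rises there were those of Fbn2, Mmp12, Mmp7 and Col4a6.

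Within hepatocyte-like nuclei the main clusters differed in some of these genes. In the cluster led by Sds, Hal and Gls2, which are amino acid enzymes of the periportal zone, Mmp14 stood at 16.3 to 73.4 unscaled CPM over the 5 libraries, and in the other large cluster at 10.3 to 52.4. Col12a1 stood at 2.78 to 10.6 in the first and at 5.08 to 27.4 in the other, and Col5a3 at 118 to 300 and 104 to 227. The ranges overlapped for all 3 genes.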

How the data were processed

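Nuclei sorted from frozen liver were sequenced by the authors on the 10x platform. For every barcode and gene, the deposited files give whole UMI counts made with Cell Ranger 8.0.1 on GRCm38, with intronic reads left out according to the methods, which lowers nuclear counts. Nuclei with 300 or more genes were kept and the highest Scrublet scores (0.8% per 1000 nuclei) removed. All nuclei were clustered with the libraries integrated (Seurat 5.3.0, RPCA), and those not hepatocyte-like were clustered again without integration. Clusters were named by markers, with a doublet score limit of 0.15 set after the data were seen. Counts were summed per library and lineage, with at least 20 nuclei, and compared with edgeR 4.0.16 (quasi-likelihood, TMM, filterByExpr, Benjamini-Hochberg, two-sided, adjusted p under 0.05) in R 4.3.3, the library being the replicate. The 33 genes and all lists were chosen with earlier results of these data known. Every member was named or covered by a range, and up to 5 other matrix genes per direction with the largest change, of which 1 is not reported here. Alternatives included DESeq2 1.42.0, other filters, replicates left out, a marker gate and a replicate block. Coordinates are from GENCODE M21 and promoters from RefSeq. Scripts were tested on simulated data.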

Additional observations from a re-analysis of the deposited data

Results flagged for a closer look

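For 18 matrix genes the MASH change in stellate-like nuclei differed from that in hepatocyte-like nuclei, by a test of the difference itself in edgeR with the library as a block. The values are the stellate-like minus the hepatocyte-like log2 change. It was positive for Col15a1 at 3.36 and for Col27a1 at 1.45, both of which lost the call without MASH replicate 2, at 2.87 and 0.78. Among the fibrillar and beaded filament collagens it was -1.64 for Col1a1, -1.88 for Col1a2, -1.88 for Col3a1, -1.98 for Col5a1, -1.64 for Col5a2, -1.45 for Col6a1 and -2.34 for Col6a3. For the collagens that coat fibrils it was -1.55 for Col14a1 and -2.91 for Col16a1. For the proteoglycans and glycoproteins it was -1.87 for Dcn, -1.85 for Bgn, -2.0002 for Lum, -2.18 for Eln and -1.80 for Sparc, and for the turnover genes -2.17 for Mmp2 and -2.46 for Timp2. The stellate markers Reln, Ecm1, Pdgfrb and Hand2os1 also had negative values, between -2.13 and -1.50, and the part of stellate RNA counted in hepatocyte-like nuclei was not tested. No group had 4 or more libraries, so a check for a library far from the rest of its group was not made.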

How the results depend on the processing

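With RLE size factors, Storey's q-values and doublet calls kept, the counts of called matrix genes stayed within 1.5 times the reported ones in every lineage. Leaving out single libraries moved the counts from 0 to 2 in stellate-like nuclei (3 in full), 0 to 4 in endothelial-like (3), 0 to 19 in hepatocyte-like (17), 1 to 21 in all nuclei (18), 0 to 2 for the stellate to endothelial difference (0) and 4 to 18 for the stellate to hepatocyte difference (18). Without a filter on low counts 7 endothelial-like genes were called (257 of all 16593 genes) and 4 immune-like (518 of 18055). Of the stellate to endothelial differences 3 were then called (106 of 18467). Under the stricter filter 2 hepatocyte-like genes were called (640 of 9315). DESeq2 called 4 genes in stellate-like nuclei, beside 135 of all 8237 genes. It called 24 in all nuclei, Fn1 lower among them, beside 4407 of all 16369 genes. With the gate on marker genes 1 matrix gene was called in stellate-like nuclei (148 of all 10806 genes) and 5 in endothelial-like (105 of 9675). In hepatocyte-like nuclei 10 were called (1400 of 13916) and in immune-like nuclei 2 (139 of 6683). In cholangiocyte-like nuclei, where the clusters gave too few nuclei for a test, 0 of 9 were called (313 of 7117). For the 2 differences the counts were 4 (61 of 10869) and 10 (274 of 13907). Without the cluster that carried stellate markers, 6 endothelial-like genes were called, beside 119 of all 8823 genes. Of the stellate to endothelial differences 5 were then called, beside 101 of all 9734 genes. The cause of these moves was not tested.

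The libraries with the same number did not deviate together from the means of their groups (correlations of -0.16 and -0.22). With 2 MASH libraries the deviations mirror each other, so the 2 correlations are linked. They cannot settle whether the numbers pair the samples. With a replicate block 8 stellate to hepatocyte differences were called, beside 255 of all 15281 genes. In stellate-like nuclei 3 genes were called (Timp1 in place of Col1a2), beside 131 of 8237. In endothelial-like nuclei 2 were called (Col1a1 and Col5a2), beside 44 of 8672. The block gave 12 hepatocyte-like calls, beside 1666 of 14888, and 21 all-nuclei calls, beside 2183 of 16369. The block turned the stellate-like log2 fold change of Col5a1 to -0.057, Col4a2 to 0.19 and Loxl2 to 0.25.

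The other signs that turned were of genes not called. Leaving out single libraries gave -0.31 to 0.36 for Col5a1, -0.51 to 0.18 for Col4a2, -0.58 to 0.58 for Col14a1, -0.26 to 0.75 for Col16a1 and -0.32 to 0.24 for Loxl2, and the gate gave -0.34 for Fn1 and 0.25 for Loxl2. In endothelial-like nuclei Dcn ran from -1.34 to 0.17 (without chow replicate 2) when libraries were left out, and was 1.33 with the gate and 0.93 without the mixed cluster. In immune-like nuclei Col1a1 ran from -2.49 to 1.82 (without chow replicate 1) and was 2.04 without the cluster of the 24 collagen nuclei.

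The difference in the share of stellate-like nuclei with a UMI was 30.7, 33.0 and 32.8 percentage points without thinning and 26.2, 26.8 and 28.6 at 1000 UMIs (exact permutation p of 0.1, 0.1 and 0.2, adjusted 0.15, 0.15 and 0.2) for Col1a1, Col1a2 and Col3a1, and 11.2 and 11.5 with the gate for Col1a1 and Col1a2. With 3 against 2 libraries and chow sums of 182 to 505 stellate-like nuclei, genes of few UMIs such as Col12a1 and Lox could not be tested there.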

Other observations

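Some nuclei were left without a name. The unnamed cluster with a median mitochondrial share of 44.6% held 2351 nuclei of MASH replicate 1 and 324 of MASH replicate 2, and Col1a1 there stood at 49.5 and 394 unscaled CPM, depth-scaled counts. With lineages named by cluster, these nuclei enter only the sums over all nuclei. The gate on the marker genes did not leave out unnamed nuclei. In the stellate gate, 247 nuclei of MASH replicate 1 and 83 of MASH replicate 2 were unnamed ones, of any unnamed cluster.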
